A study of Caenorhabditis elegans with 2 samples.

Results

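The nhr genes of Caenorhabditis elegans encode nuclear hormone receptors, and binding of the zinc finger protein SMA-9 at these genes is described here. Members were all protein-coding genes whose Ensembl WBcel235 name starts with nhr-, which gave 269 of 19973 protein-coding genes. A peak was assigned to a gene when its summit lay in the gene body or up to 2 kb upstream of it. By this rule 10 nhr genes, led by nhr-1, nhr-3, nhr-14 and nhr-48, had a summit of a thresholded peak, that is, a peak of the authors' short list of strong peaks. That is 3.72% of the family, against 0.451% of all coding genes. Genes on X, II and IV held 8 of the 10. The 167 genes on V held 2, or 1.20%, against 0.360% of coding genes on V. Off V the shares were 7.84% and 0.481%. Most best peaks of the family were weak, as at coding genes at large. Among genes with a summit, the median best rank was 11472 in the family and 10019 over all coding genes.

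Nuclear hormone receptors are transcription factors with a zinc finger DNA-binding domain and a domain that can bind small lipophilic ligands. In nematodes the family is much larger than in insects or vertebrates, mostly through receptors related to HNF4, and many of these genes stand in tandem groups on chromosome V. A small number have counterparts in other animal phyla and act in moulting, developmental timing and organ formation, while several of the nematode-specific ones act in lipid, diet and xenobiotic responses. SMA-9 is the worm counterpart of fly Schnurri and is known for its part in body size control through BMP-type signalling.

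The data were chromatin immunoprecipitations with sequencing (ChIP-seq) from whole animals at the L2 larval stage, with 2 biological replicates in 1 group. The sex of the animals is recorded as males and females pooled. The animals were strain OP130 (unc-119(ed3) III; wgIs130), whose integrated transgene carries an eGFP-tagged sma-9. The label for the antibody names the target, sma-9. Signal comes from all tissues together, so a site bound in few cells and a site bound weakly in many cannot be told apart, and binding is that of the tagged protein from the transgene. The lists of replicate 1, of replicate 2 and of their pooled reads held 30000 peaks each, weak ones included. The thresholded list, which came from a check of reproducibility between the replicates, held the 125 of highest signal in the pooled list. Peak signal, a number given by the authors without a stated scale, had a median of 14.1 in the pooled list, 9.50 in replicate 1 and 6.34 in replicate 2. Rank 1 is the strongest peak of a list. Read depth is unknown from these lists. With 1 group and no control library used here, no difference was tested. Shares of genes are given with exact 95% (Clopper-Pearson) intervals, which cover counting error over genes only, beside the same share of all protein-coding genes.

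The sequences under the strongest nhr summits mostly held runs of alternating G and A. Shown are 200 bp of the plus strand of ce11, read from the RefSeq assembly and centred on the best summit of 7 genes. They comprise the genes that ranked among the 125 strongest in both replicates (nhr-1 at X:17513647-17513846, nhr-14 at X:8477498-8477697 and nhr-48 at X:15707544-15707743), other strong intronic and promoter sites (nhr-3 at X:14560381-14560580, nhr-19 at II:9603452-9603651 and nhr-58 at V:532077-532276), and nhr-31 at IV:8028465-8028664, which has no such run. Capitals mark GAGAGA or its complement TCTCTC, and the E-box CACGTG.
nhr-1: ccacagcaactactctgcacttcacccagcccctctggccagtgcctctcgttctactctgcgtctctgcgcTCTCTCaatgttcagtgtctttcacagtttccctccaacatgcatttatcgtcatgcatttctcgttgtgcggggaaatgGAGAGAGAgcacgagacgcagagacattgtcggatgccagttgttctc
nhr-14: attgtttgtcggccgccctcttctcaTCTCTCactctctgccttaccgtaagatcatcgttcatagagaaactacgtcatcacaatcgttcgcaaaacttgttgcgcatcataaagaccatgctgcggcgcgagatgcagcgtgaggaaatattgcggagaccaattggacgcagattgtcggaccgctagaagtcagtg
nhr-48: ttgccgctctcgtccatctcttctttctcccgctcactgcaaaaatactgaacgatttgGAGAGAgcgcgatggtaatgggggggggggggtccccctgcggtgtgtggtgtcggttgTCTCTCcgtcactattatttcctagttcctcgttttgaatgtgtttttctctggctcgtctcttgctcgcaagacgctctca
nhr-3: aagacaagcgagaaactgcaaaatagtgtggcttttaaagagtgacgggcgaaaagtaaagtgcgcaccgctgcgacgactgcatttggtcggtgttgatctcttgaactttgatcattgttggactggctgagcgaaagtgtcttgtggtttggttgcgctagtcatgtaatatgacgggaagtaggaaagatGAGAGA
nhr-19: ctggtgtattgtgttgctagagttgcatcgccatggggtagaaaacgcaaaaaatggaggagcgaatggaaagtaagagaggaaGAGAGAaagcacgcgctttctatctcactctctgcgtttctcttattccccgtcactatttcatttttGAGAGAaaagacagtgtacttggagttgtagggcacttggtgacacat
nhr-58: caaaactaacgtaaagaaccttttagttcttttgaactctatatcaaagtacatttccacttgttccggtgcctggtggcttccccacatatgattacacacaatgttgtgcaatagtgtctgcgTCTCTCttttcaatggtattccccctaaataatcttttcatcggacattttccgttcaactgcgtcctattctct
nhr-31: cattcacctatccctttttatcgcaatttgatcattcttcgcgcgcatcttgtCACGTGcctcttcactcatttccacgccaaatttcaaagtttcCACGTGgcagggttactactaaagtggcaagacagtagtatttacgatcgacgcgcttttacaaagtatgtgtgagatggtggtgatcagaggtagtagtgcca

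GAGAGA on either strand was in 9 of the 10 windows at nhr genes with a thresholded summit (90%, exact 95% interval 55.5% to 99.7%). The exception was nhr-27, whose intronic window had a GC content of 30%. The motif was in 55.2% of windows at all 125 thresholded peaks, in 22.9% of those at the 1000 strongest peaks and in 10.4% of those at all 30000 pooled peaks. Among the 1000 strongest pooled peaks, nhr genes had 18 distinct best peaks, of which 11 had the motif (61.1%, exact 95% interval 35.7% to 82.7%). These 18 include the 10 thresholded windows, which held 9 of the 11 matches. The other matches were at nhr-119 and at the peak shared by nhr-100 and nhr-138. Of the 1000 strongest peaks only 125 are thresholded, so the 61.1% and the 22.9% are not over peaks of like rank. The window at nhr-119, of rank 706, held 4 matches and that at nhr-1 held 3, where overlapping matches are counted. Windows at nhr-48, nhr-19 and nhr-105 held 2 each. Over all 195 distinct best peaks of the family the share was 15.4%. In windows of 100 bp the motif was in 5 of the 10 and in 7 of the 18 (38.9%), against 30.4% at all thresholded peaks and 13.3% at the 1000 strongest.

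Of the other motifs searched on both strands, only the short GTCT was in most windows of the strongest nhr peaks, and it was also in most windows of all peaks. GTCT, the string at the heart of sites that SMAD proteins bind, was in all 18 of these windows (100%, exact 95% interval 81.5% to 100%). It was in 88.8% of windows at thresholded peaks, 68.2% of those at the 1000 strongest and 60.7% of all pooled windows. In windows of 100 bp it was in 77.8% of the 18, against 44.5% at the 1000 strongest peaks. At thresholded peaks, which make up a larger part of the 18 than of the 1000, it was in 9 of 10 nhr windows and in 68% of all. The E-box CACGTG, a palindrome that helix-loop-helix factors recognise, was in the windows at nhr-31, with 2 matches, at nhr-68 and at nhr-249, a share of 16.7% (exact 95% interval 3.58% to 41.4%) against 8.4% at the 1000 strongest peaks and 3.40% of all pooled windows. At thresholded peaks it was in 1 of 10 nhr windows and in 19.2% of all. The GATA-type string GATAAG was in those at nhr-68 and nhr-119, a share of 11.1% that equals the 11.1% at the 1000 strongest peaks. The GC-rich SMAD site GGCGCC and the nuclear receptor half-site AGGTCA were in 0 of 18 windows (exact 95% interval 0 to 18.5%), against 29 and 60 of the windows at the 1000 strongest peaks. GC content averaged 43.3% ± 8.11 (SD, n = 10 windows) at the thresholded nhr summits, 46.2% at all thresholded peaks and 34.7% at all pooled peaks.

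The strongest nhr peak lay in front of nhr-1 (WBGene00003600, X:17514063-17528197, plus strand). Its summit at X:17513747, 316 bp upstream of the gene, had a pooled signal of 72.6 and rank 10. Signal was 34.7 in replicate 1 (rank 37) and 35.8 in replicate 2 (rank 6). Both replicates placed it among their strongest peaks, and relative to the lists' medians it stood higher in replicate 2. The other 7 summits of nhr-1, all in the gene body, had pooled signals from 11.4 to 21.9, so that 1 promoter peak stood out from the rest of the gene.

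The receptor gene nhr-48 (WBGene00003638, X:15708213-15716875, plus strand) had the same arrangement. It belongs to the conserved subfamily of the steroid receptor DAF-12. The summit 569 bp upstream had a pooled signal of 60.1 (rank 22), with 39.8 in replicate 1 (rank 22) and 20.8 in replicate 2 (rank 28). Ranks in the 3 lists were therefore within 6 places of each other. The other 6 summits of the gene had signals from 13.5 to 22.7.

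The gene nhr-14 (WBGene00003613, X:8473722-8476178, minus strand), an HNF4-related receptor that acts in intestinal iron uptake and innate immunity, had 2 thresholded peaks. The stronger, 1420 bp upstream, had a pooled signal of 68.7 (rank 14), with 45.0 in replicate 1 (rank 17) and 21.4 in replicate 2 (rank 26). The other, 809 bp into the gene in an intron, had a pooled signal of 49.8 (rank 40), with 30.5 in replicate 1 (rank 58) and 17.6 in replicate 2 (rank 53). No other nhr gene had more than 1 thresholded peak, so 11 of the 125 thresholded peaks (8.8%) lay in nhr windows. The share of all pooled peaks in nhr windows was not counted, so this share has no background here.

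Peaks in introns were strong at nhr-3, nhr-19 and nhr-46. At nhr-3 (WBGene00003602, X:14558504-14561432) the summit lay 1977 bp from the 5′ end, with a pooled signal of 71.1 (rank 12). Signal there was 55.7 in replicate 1 (rank 7) and 13.7 in replicate 2 (rank 267), and the summit of replicate 2 lay more than 100 bp away. At nhr-19 (WBGene00003618, II:9598180-9605526) the intronic summit had a pooled signal of 51.0 (rank 37), with rank 59 in replicate 1 and 763 in replicate 2. At nhr-46 (WBGene00003636, IV:5747363-5757862) summits 3656 and 4631 bp into the gene had ranks of 98 (signal 37.2) and 229 (29.9). The stronger of these ranked 158 and 356 in replicates 1 and 2.

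**Figure D1:**
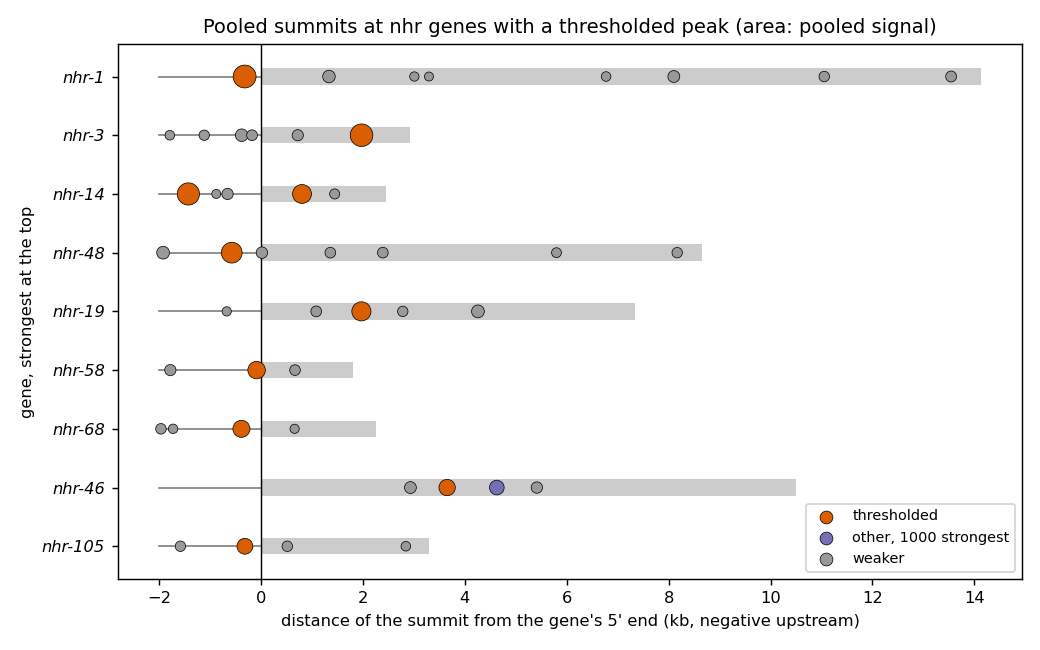
Summits of the pooled list at 9 of the 10 nhr genes with a thresholded peak, by distance from the gene's annotated 5′ end in kb, with grey bars for the gene body, thin lines for the 2 kb upstream and circle areas in proportion to pooled signal. Each gene has 1 dominant summit apart from nhr-14, which has 2, and nhr-46, whose second-ranked summit was also among the 1000 strongest; nhr-27 is left out for its length.

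On chromosome V the thresholded summits lay at nhr-58 and nhr-68. For nhr-58 (WBGene00003648, V:532259-534070), part of a tandem group of 4 nhr genes, the summit lay 82 bp upstream with a pooled signal of 42.4 (rank 69). The replicates differed there, at 29.4 (rank 65) in replicate 1 and 8.37 (rank 5623) in replicate 2. The gene nhr-68 acts with nhr-10 in a circuit that turns on breakdown of propionate when vitamin B12 is low. Its summit (WBGene00003658, V:11573440-11575709) lay 379 bp upstream of nhr-68 with a pooled signal of 40.5 (rank 83), and ranked 209 in replicate 1 and 73 in replicate 2. This summit was only 71 bp from the 5′ end of another coding gene, H12C20.7, so its assignment to nhr-68 is uncertain.

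The remaining thresholded genes were nhr-27 and nhr-105. The annotated nhr-27 (WBGene00008901, X:12705563-12808318) spans 102756 bp, the greatest length of any coding gene in the annotation, and 11 other coding genes lie within it. Its window held 57 summits, 3 of them among the 1000 strongest, and the best (rank 86, signal 39.6) lay 13137 bp into the gene, where the nearest coding 5′ end was that of abf-6 at 1063 bp. It ranked 417 in replicate 1 and 40 in replicate 2. At nhr-105 (WBGene00003695, IV:7050156-7053450) the summit lay 311 bp upstream, with rank 121 (signal 35.0) in the pooled list, 128 in replicate 1 and 2149 in replicate 2. Just outside the thresholded list came nhr-21 (rank 218, signal 30.2), nhr-31 (445, 26.8) and nhr-249 (493, 26.5).

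**Figure D2:**
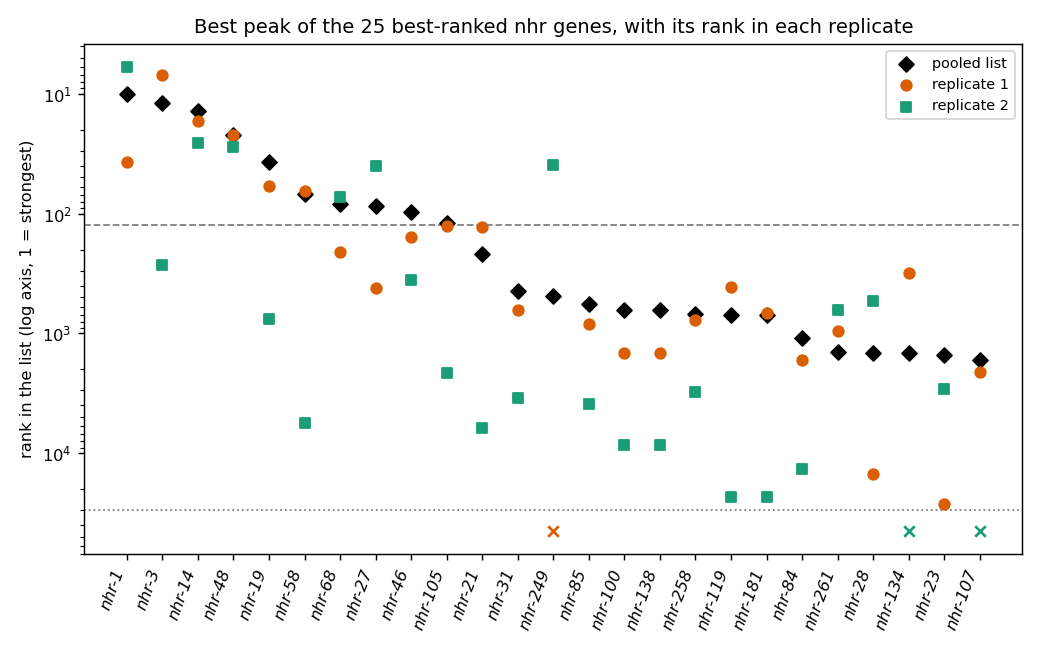
Rank of the best pooled peak of the 25 best-ranked nhr genes (black), with the rank of the strongest overlapping peak in replicate 1 (orange) and replicate 2 (green), on a log axis with rank 1 at the top. The dashed line marks rank 125, the dotted line the list's end at 30000, and a cross below it a peak absent from that replicate's list; nhr-14 and nhr-48 keep close ranks in all 3 lists, whereas nhr-119 and nhr-181 rank 23321 and 23253 in replicate 2.

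Counted over the family, 10 of 269 nhr genes had a thresholded summit (3.72%, exact 95% interval 1.80% to 6.73%), against 0.451% of all coding genes. A summit among the 1000 strongest was found at 19 (7.06%, interval 4.31% to 10.8%) against 4.60%. Any pooled summit was found at 211 (78.4%, interval 73.0% to 83.2%) against 73.2%, and 58 nhr genes had none. The excess over all coding genes was thus seen at the top of the list and grew small lower down, since 62 nhr genes had a summit among the 5000 strongest (interval 18.2% to 28.5%) and so had 20.8% of all coding genes. Over genes with a summit, the median best rank was 11472 in the family and 10019 over all coding genes.

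The nhr genes with a thresholded summit were of mixed length, and the length of the window bears on how many summits it can hold. The median gene length was 5321 bp for these 10 genes, 2309 bp for the family and 2027 bp for all coding genes. Among the 10, nhr-58, nhr-68, nhr-14, nhr-3 and nhr-105 were from 1812 to 3295 bp long, and the others were longer. The median length of all coding genes with a thresholded summit was not taken. When coding genes were divided by window length into 3 classes of about equal number, 87 nhr genes were in the longest class and 7 of them had a thresholded summit (8.05%, interval 3.30% to 15.9%), against 0.812% of all coding genes in that class. In the middle class the count was 3 of 159 (1.89%), against 0.285% of coding genes there, and in the shortest 0 of 23, against 0.255%. Summits of any strength were present at 3.56 per 10 kb of window in the family and 2.99 over all coding genes, and at 3.41 in the family without nhr-27.

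By chromosome, the 23 nhr genes on X stood apart from the 167 on V. On X, 5 genes had a thresholded summit (21.7%, interval 7.46% to 43.7%), against 0.915% of coding genes there, and all 23 had some pooled summit, against 83.3%. These 5 include nhr-27, whose best summit lay nearest the 5′ end of abf-6. On V, where 62.1% of the family but 4994 of 19973 coding genes lie, 2 had a thresholded summit (1.20%, interval 0.145% to 4.26%) against 0.360%. On the other chromosomes, X included, 8 of 102 had one (7.84%, interval 3.45% to 14.9%) against 0.481%. With the 1000 strongest peaks the shares were 1.80% of nhr genes on V (3 genes) against 4.19% of coding genes there, and 15.7% off V (16 genes) against 4.74%. Chromosomes II and IV held 3 of 15 and 7 of 33 nhr genes with such a summit, against 3.86% and 4.51% of coding genes there, including nhr-19, nhr-21 and nhr-119 on II and nhr-46, nhr-105 and nhr-31 on IV.

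**Figure D3:**
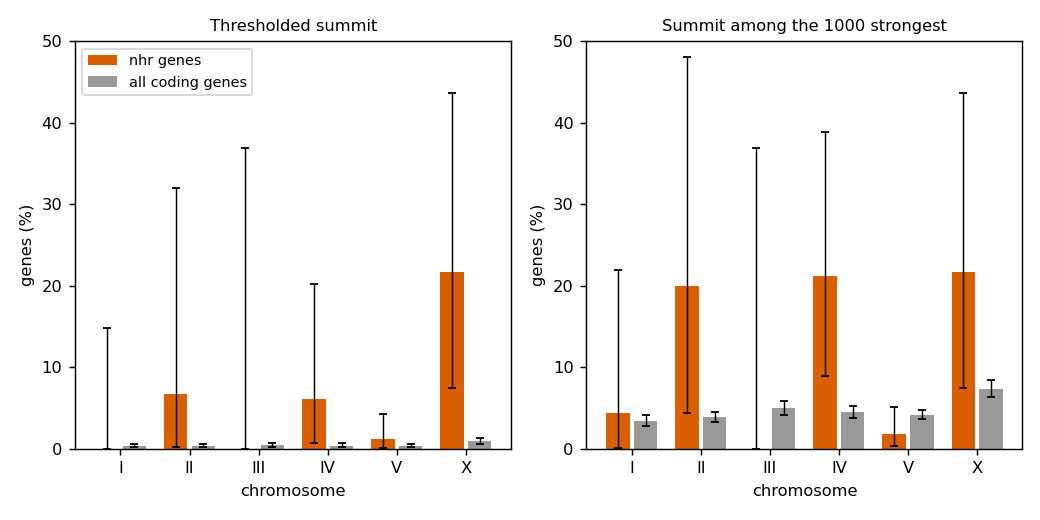
Share of nhr genes (orange) and of all coding genes (grey) with a thresholded summit (left) or a summit among the 1000 strongest pooled peaks (right), in percent by chromosome, with exact 95% intervals. On X 21.7% of nhr genes had a thresholded summit against 0.915% of coding genes, and on V 1.20% against 0.360%, with wide intervals where few nhr genes lie.

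The tandem groups on V had few genes with a summit among the 1000 strongest pooled peaks. A run was taken as 3 or more nhr genes with at most 20 kb between neighbours, which gave 17 runs with 102 genes on V. Of these, only nhr-58 had a summit among the 1000 strongest (0.980%, interval 0.0248% to 5.34%), against the 4.19% of coding genes on V given above. The interval includes that share, so the runs could not be set apart from other genes of V at this number. The summit at nhr-58 was also thresholded, which gives the same 0.980% against 0.360% of coding genes on V. The 65 nhr genes on V outside runs had 2, at nhr-68 and nhr-181 (3.08%, interval 0.375% to 10.7%). Peaks of any strength were not missing from the runs, as 72 of the 102 genes had one (70.6%), close to the 72.9% of coding genes on V. Median best rank was 14367 in the runs, 11965 on V outside them and 8786 on the other chromosomes, and median gene length was 2105, 2176 and 3144 bp in that order.

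In each replicate alone the runs were closer to other genes of V. Of the 102 genes, 4 had a summit among the 1000 strongest of replicate 1 (3.92%, against 3.82% of coding genes on V) and 4 in replicate 2 (3.92% against 3.96%). The genes were nhr-58, nhr-134, nhr-202 and nhr-201 in replicate 1 and nhr-183, nhr-275, nhr-131 and nhr-185 in replicate 2. The 2 sets shared 0 genes, but the overlap over all coding genes on V was not counted. The lack of a shared gene is therefore not shown to be a trait of the runs. The pair nhr-183 and nhr-275 owed its place to 1 peak, of rank 129 in replicate 2 and absent from the list of replicate 1. In the pooled list that peak ranked 5803.

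The best pooled peaks of the larger runs were correspondingly weak. In the 9 runs of at least 5 genes they ranked from 1474 to 7341, with signals between 17.0 and 22.7. The run with nhr-134 had the strongest, with its summit 100 bp into the gene (signal 22.7), which ranked 313 in replicate 1 and was absent from replicate 2. Next came nhr-107 (rank 1678), nhr-60 (3164) and nhr-110 (3203). Best peaks at nhr-131, nhr-185, nhr-183 and nhr-53 ranked between 5249 and 5939 and were absent from the list of replicate 1. At nhr-154 (rank 7341) both replicates had a peak, of rank 18755 in replicate 1 and 23852 in replicate 2.

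**Figure D4:**
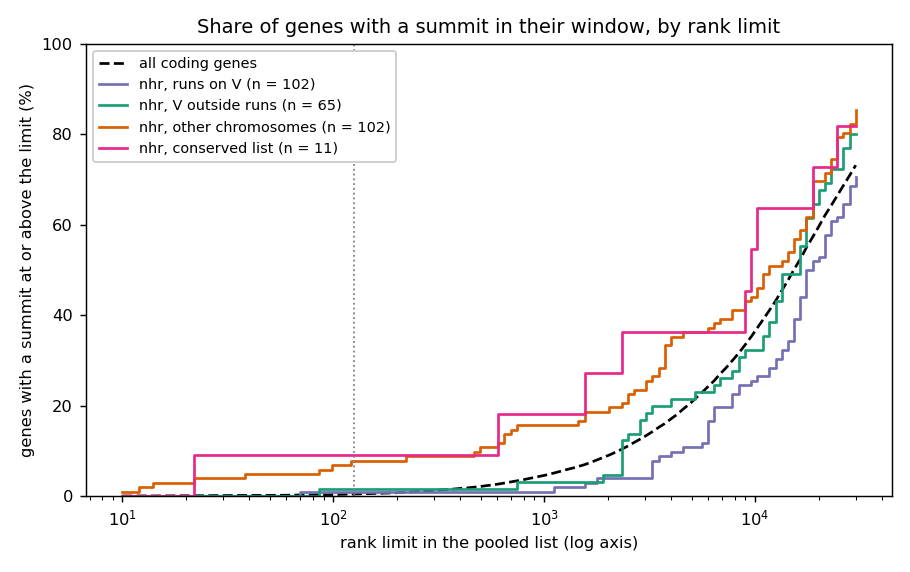
Share of genes, in percent, with a summit at or above each rank limit of the pooled list (log axis), for nhr genes in runs on V, on V outside runs, on other chromosomes and in the conserved list, and for all coding genes (dashed); the dotted line marks rank 125. Members on other chromosomes lie above the dashed line at rank 1000 (15.7% against 4.60%) and those in runs on V below it (0.980%).

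Of the 11 receptors with counterparts in other phyla, 2 had a summit among the 1000 strongest (18.2%, interval 2.28% to 51.8%), against 4.60% of all coding genes. Any summit was found at 9 (81.8% against 73.2%), and a thresholded one at nhr-48 (9.09% against 0.451%). The other gene with a summit among the 1000 strongest was nhr-85, the counterpart of fly E75 and vertebrate Rev-Erb, which acts in developmental timing. Its summit 922 bp upstream ranked 574 (signal 26.0), with rank 840 in replicate 1 and 3911 in replicate 2. Next came nhr-23, the ROR and fly DHR3 counterpart that drives moulting, at rank 1527, and nhr-6, the NR4A receptor of the spermatheca, at rank 2232. Both were weak in replicate 1, at ranks 26810 and 17085, and stronger in replicate 2, at 2906 and 774. For nhr-6 that replicate 2 summit lay more than 100 bp from the pooled one, and the replicate 2 peak within 100 bp ranked 15024.

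The other conserved receptors had weak peaks or none. Best ranks were 8748 at nhr-239, 9460 at nhr-25, the Ftz-F1 and SF-1 counterpart of moulting and epidermis, 10213 at nhr-41, 18088 at nhr-67, the tailless counterpart of the uterine anchor cell, and 24469 at nhr-91. No pooled summit lay in the windows of nhr-8, a DAF-12 relative that acts in cholesterol balance and drug resistance, or of nhr-111. With 11 genes the interval of the share spans that of all coding genes, so conserved receptors could not be set apart from other genes at this number.

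Receptors with known roles in lipid, diet, iron, hypoxia or pathogen responses numbered 14. Of these, 2 had a summit among the 1000 strongest, nhr-14 and nhr-68 described above (14.3%, interval 1.78% to 42.8%, against 4.60% of all coding genes). Any summit was found at 12 (85.7%, interval 57.2% to 98.2%, against 73.2%). At nhr-13, a partner of NHR-49, the best rank was 3253, and at nhr-66, another partner, it was 3668. The gene of NHR-49 itself, the regulator of fatty acid desaturation and beta-oxidation, had a best rank of 5632 (signal 18.1), in a peak 344 bp upstream that ranked 1439 in replicate 1 and was absent from replicate 2. Replicate 2 alone had another summit in the nhr-49 window at rank 360. The best ranks at nhr-114, nhr-62, nhr-57, nhr-10, nhr-64, nhr-76 and nhr-69 lay between 6548 and 21237, and nhr-80 and nhr-86 had no summit. Of the 3 receptors listed for development, nhr-31 of the excretory cell ranked 445, nhr-40 of body wall muscle 1951 and nhr-2 of the embryo 17855.

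The nhr genes among the 25 best-ranked that had no thresholded summit had best peaks of moderate signal and from 1 to 8 pooled summits each. At nhr-100 and nhr-138, tandem neighbours on IV, a single peak of rank 643 was shared, 780 bp upstream of nhr-100 and in a coding exon of nhr-138. Ranks of 690, 706 and 710 belonged to nhr-258, nhr-119 and nhr-181. The summit at nhr-181 lay 2574 bp into the gene and 14 bp upstream of a transcript start annotated within it. At nhr-249, a gene of 630 bp, overlapping peaks of rank 493 and 545 lay upstream beside a pseudogene, absent from replicate 1 and matched by a peak of rank 39 in replicate 2. The list ended with nhr-84 (rank 1096), nhr-261 (1445), nhr-28 (1468), nhr-134, nhr-23 and nhr-107.

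Position in the gene was close to that of coding genes at large. The best summit lay upstream of the gene body at 97 of 211 nhr genes (46.0%) and at 47.3% of all coding genes with a summit. Introns held 57 of the 211, against 25.6% for all coding genes, and coding exons held 20.4% against 21.4%. Among the 10 genes with a thresholded summit, 6 had it upstream, from 82 bp at nhr-58 to 1420 bp at nhr-14, and 4 in an intron. The nearest coding 5′ end was the gene's own for 74.4% of the 211, against 68.7% of all coding genes with a summit. Among the 1000 strongest it was so for 16 of 19 nhr genes (84.2%), against 68.6% of coding genes.

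The strongest nhr peaks, like thresholded peaks at large, had a counterpart in both replicates, and most of the weaker nhr peaks had one in 1 replicate only. The pooled list draws on both replicates, so its order is not independent of either. The thresholded list was made from the pooled and both replicate lists in a check of reproducibility. A counterpart in both replicates was therefore largely built into that choice, and is not a separate finding about its nhr peaks. All 10 best peaks at thresholded nhr genes were overlapped by a peak in both replicate lists, as were 96% of all thresholded peaks, and for 8 of them both of those peaks were among the 1000 strongest of their list. Over the 211 genes the best peak was overlapped in both lists for 70 (33.2%), in replicate 1 for 150, in replicate 2 for 115 and in neither for 16. Of the best peaks of all coding genes, 4714 of 11788 were overlapped in both, and of all pooled peaks 33.8%. Both of these shares are over distinct peaks, whereas the 70 of 211 are genes, some of which share a peak. The share over the 195 distinct best peaks of the family was not counted, so the family is not ranked against coding genes here. In the runs on V the best peak was overlapped in both lists for 14 of 72 genes (19.4%), and on the other chromosomes for 38 of 87 (43.7%). Median best rank also differed, at 14367 in the runs and 8786 on the other chromosomes. The same shares of coding genes on and off V were not counted, so the lower share is not shown to be a trait of the runs.

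Taking each replicate's own 125 strongest peaks, 6 nhr genes had a summit in each (2.23% each), against 0.441% of coding genes in replicate 1 and 0.551% in replicate 2. In replicate 1 these were nhr-3, nhr-14, nhr-48, nhr-1, nhr-19 and nhr-58. In replicate 2 they were nhr-1, nhr-14, nhr-48, nhr-249, nhr-27 and nhr-68. Thus 3 genes, nhr-1, nhr-14 and nhr-48, were in both, and 9 were in both among the 1000 strongest, adding nhr-3, nhr-19, nhr-27, nhr-46, nhr-68 and nhr-261. The share of all coding genes found in both replicates was not counted, so these 2 counts have no background beside them.

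Across the 70 genes with a best peak in both lists, Spearman's rho of the ranks was 0.38, a description over peaks of the same 2 libraries, some of them shared by neighbouring genes. Replicate 1 signal over that of replicate 2, as a log2 ratio, had a median of 0.83, where the ratio of the lists' median signals is 0.58 on the same scale. Among the 25 best-ranked genes the ratio was largest at nhr-3 (2.02), nhr-119 (1.86) and nhr-58 (1.81). It was smallest at nhr-28 (-0.39), nhr-23 (-0.34) and nhr-1 (-0.05). Peaks absent from 1 list were those of nhr-249 in replicate 1 and of nhr-134 and nhr-107 in replicate 2.

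**Figure D5:**
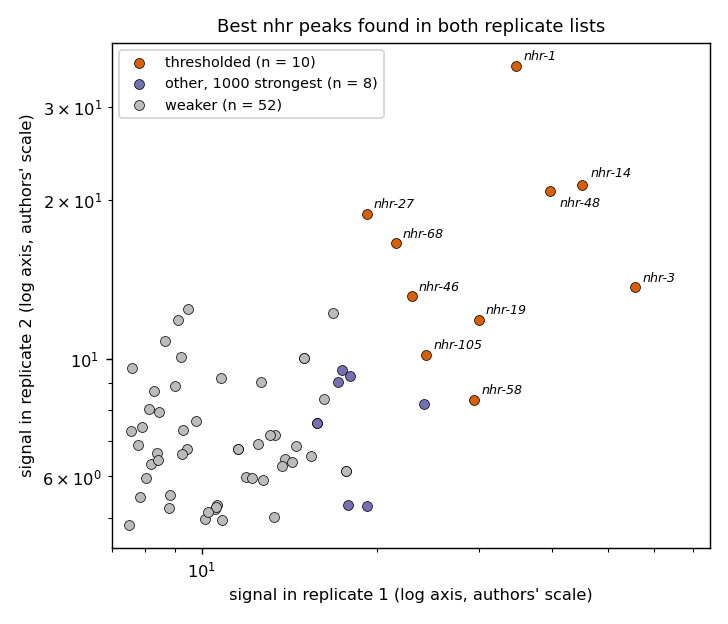
Signal of the best peak of 70 nhr genes in replicate 1 (x) and replicate 2 (y), both on log axes in the authors' scale, with the 10 genes with a thresholded summit in orange and named, 8 others of the 1000 strongest in purple and the rest in grey. The points of nhr-1, nhr-14 and nhr-48 are high in both replicates, while that of nhr-58 is high in replicate 1 (29.4) and low in replicate 2 (8.37).

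None of the listed nuclear receptor genes with other names had a summit among the 1000 strongest, which 4.60% of all coding genes had. Of the listed cofactors of these receptors, din-1 and cbp-1 had one. Of the receptors, odr-7 of the AWA olfactory neurons had the best rank (3466), followed by unc-55, the COUP-TF counterpart of motor neurons (4715), and the steroid receptor gene daf-12 (7010, with rank 766 in replicate 1). Best ranks at sex-1 and fax-1 were 12110 and 12144. Among cofactors, din-1, which encodes a corepressor of DAF-12, had a thresholded intronic peak of rank 52 (signal 46.7), with rank 424 in replicate 1 and 10 in replicate 2. The acetyltransferase gene cbp-1 had a peak of rank 200 (30.8) 890 bp upstream, and gei-8, the NCoR counterpart, one of rank 1684. At mdt-15, which encodes the Mediator subunit that works with NHR-49, the best rank was 9001.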

How the data were processed

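Peak lists from ChIP-seq of eGFP-tagged SMA-9 in L2 larvae were used in the ce11 build: 1 list per replicate, 1 from the pooled reads and the thresholded list. Per the text files deposited with them, the lists were made from alignments and a control and fed a check of reproducibility between replicates (IDR). Which aligner, caller and cutoff served is not given in the sources used here. Column 7, used for ranks, is the authors' deposited signal per peak, with no stated scale. Column 9 is a deposited score that lies below 0 for 20593 pooled peaks, so it served only as an alternative rank. All peaks of a list have 1 width (384 bp in the pooled list), with the summit at the centre.

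Genes came from Ensembl release 115 (WBcel235, the coordinates of ce11) and sequence from the RefSeq assembly of that build, with 1-based coordinates. Python 3.11.15, pandas 2.3.3 and scipy 1.17.1 were used. A replicate's value at a pooled peak is that of its strongest peak overlapping it by at least 1 bp. Assignment was tested on simulated data. Alternatives were the upstream distance, single assignment to the nearest 5′ end, each replicate alone, ranks by column 9, rank limits, overlap, run spacing and motif window. The members and gene lists were chosen with earlier results of these data known. The ce10 lists were not used. Named genes are the 25 best-ranked, all conserved and other listed receptors, the best gene of each large run on V and the extremes of the ratio between replicates. Genes ranked in a single replicate, counts by window length and nhr genes beyond the window were examined after the values were seen.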

Additional observations from a re-analysis of the deposited data

How the results depend on the processing

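Of 58 alternative counts, 41 stayed within 1.5 times the reported count. Of 12 alternative motif shares, 9 stayed within the exact interval of the reported one. All 7 alternatives of the median best rank moved it by more than the SD over the replicates' own lists (209, n = 2). With the gene body alone, the number of nhr genes with a thresholded summit was 5, with one among the 1000 strongest 10, in runs on V 0 and in the conserved list 0, and the number of best summits upstream was 0 by construction. With 5 kb upstream that last number was 171, and runs on V had 2. With the nearest 5′ end only, 8 nhr genes had a thresholded summit, as the best ranks of nhr-27 and nhr-68 became 7496 and 25273. Without replicate 1 or without replicate 2 the number of genes with a summit among as many top peaks as the thresholded list was 6 each time, and runs on V had 4 each time, since each replicate's own peaks replace the pooled ones. The stronger peaks of the thresholded list, up to its middle rank, left 5 genes. Runs on V had 2 with ranks by column 9 and 4 with the 2000 strongest, and the conserved list had 1 with the 500 strongest. Best peaks matched in both replicates numbered 40 with summits within 100 bp and 9 among the 1000 strongest of each. The median best rank of nhr genes was 12292 with 1 kb upstream, 7487 with 5 kb, 13032 with the gene body, 11873 with the nearest 5′ end only, 10430 without replicate 1, 10134 without replicate 2 and 8072 by column 9. Over all coding genes it was 10759, 7878, 11361, 11172, 9711, 9893 and 9478 in that order. The family's median was a lower rank number than that of coding genes with 5 kb and with column 9, and a higher one with the others. Shares by motif moved to 90% for GAGAGA at thresholded summits alone, and in 100 bp windows to 77.8% for GTCT and 0 for GATAAG. The cause of these changes was not tested, except where stated. Column 9 orders the pooled peaks beyond rank 1000 inversely to signal (Spearman's rho -0.999), so a low median rank by column 9 does not stand for strong signal. Leaving out nhr-27 from the density of summits was an alternative chosen after seeing the data.

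Depth is unknown, control libraries were not used here, and a summit in a window does not show that the gene is a target. Windows of neighbours overlap, so 211 genes rest on 195 distinct peaks. How reads were placed among similar nhr genes was not tested. Intervals treat genes as independent, which tandem copies are not. No paired analysis was possible because there is 1 group.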

Other observations

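Strong peaks also lay near nhr genes beyond the 2 kb limit and are not counted above. Of the 1000 strongest pooled peaks, 7 lay outside every nhr window although the nearest coding 5′ end was that of an nhr gene, and 3 of these were thresholded. One, of rank 15 (signal 66.9), lay 8127 bp upstream of nhr-1 and ranked 14 in replicate 1 and 106 in replicate 2. Others lay 2549 bp upstream of nhr-88 on II (rank 30, signal 55.2; 19 and 320 in replicates 1 and 2) and 4645 bp upstream of nhr-20 on III (rank 77, signal 40.9; 52 and 1198). The remaining 4 were a peak of rank 174 downstream of nhr-3, one of rank 342 lying 2573 bp upstream of nhr-14, and those of rank 533 and 553 near nhr-173 and nhr-35, all on X. Thus nhr-1, nhr-3 and nhr-14 each had further strong peaks around the one described in the report.

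A longer string, ACGCAGA on either strand, was noticed in the windows printed in the report and searched afterwards, so its count at these genes is a description only. It was in 5 of the 10 windows at nhr genes with a thresholded summit, those of nhr-1, nhr-14, nhr-19, nhr-58 and nhr-46, and also in that of nhr-119. The share was 35.2% at all 125 thresholded peaks, 7.90% at the 1000 strongest and 2.09% at all pooled peaks. Its letters can overlap those of GAGAGA where both occur.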
